A study of Mus musculus with 6 samples.

Results

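The immunoglobulin kappa variable genes, Igkv, are the V segments of the kappa light chain locus. Every row of the deposited expression table whose gene name starts with Igkv was taken, which gave 160 of the 49585 rows. Of these, 100 are annotated as genes and 60 as pseudogenes, and all lie on chromosome 6 between positions 67555497 and 70704177 of GRCm38. RNA was sequenced from splenic regulatory T cells (Tregs) of C57BL/6 mice aged 7 weeks, 3 libraries from wild-type (WT) mice and 3 labelled Bach2-cKO, a conditional knockout of Bach2, which encodes a transcriptional repressor of lymphocytes. In both groups the cells were sorted as CD4+, CD25+ and YFP+ without B220, a surface marker of B cells, and were then held for 24 h on plate-bound CD3 and CD28 antibodies, which stimulate the T cell receptor. The labels do not name the Cre driver, so which cells lack BACH2 is not stated. They also do not say whether the replicates came from separate mice, so p-values measure the spread between these libraries, which may be technical.

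A kappa chain is made when a developing B cell joins a V segment to a J segment of the same locus, and the joined V-J exon is spliced to the constant exon, Igkc. The V segments lie in either orientation relative to the J segments, and joining occurs by deletion or by inversion. A mature B cell usually expresses a single joined light chain, and plasma cells, the antibody-secreting descendants of B cells, transcribe it at very high levels. T cells do not normally carry joined kappa genes. The spread of Igkv RNA over segments therefore describes which V segments the antibody RNA of a sample uses, with each cell weighted by how much of this RNA it holds.

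The totals behind the values, recovered from the steps of the deposited values (FPKM, read fragments corrected for gene length and for library size), were 27697735 to 43884431 reads per library. Between 10900 and 31122 of these lay on Igkv rows. Bach2 itself stood at 112.0, 111.4 and 99.4 FPKM in WT and at 88.9, 104.5 and 120.8 FPKM in the libraries labelled Bach2-cKO, so the groups overlapped. A gene-level value also counts exons outside a deletion, and which exons were deleted is not given, which leaves the labels unchecked by this value. The groups are named as labelled. The defining T cell genes were abundant: the 10 T cell markers summed to 3194 to 3487 FPKM in WT and 2372 to 2703 in Bach2-cKO, and Foxp3, the Treg transcription factor, ranged from 104.2 to 153.5 FPKM in the Bach2-cKO libraries with a WT mean of 116.0 ± 10.1 (SD, n = 3).

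The 7 Igkv segments with the highest mean share of Igkv RNA are shown by their last 53 coding bases, the end that is joined to a J segment and enters the antigen-contacting loop. The sequences were read from GENCODE M21 on GRCm38, 5′ to 3′ on the strand of the gene. Capitals mark the germline bases after the last in-frame cysteine codon, the V-encoded part of the third complementarity-determining region (CDR3), and the lower-case bases are the 10 codons before them.
Igkv1-117: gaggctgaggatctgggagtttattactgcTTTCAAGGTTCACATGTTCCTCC
Igkv12-89: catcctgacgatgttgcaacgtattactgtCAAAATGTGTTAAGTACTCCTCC
Igkv1-135: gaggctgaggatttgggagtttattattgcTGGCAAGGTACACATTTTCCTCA
Igkv1-110: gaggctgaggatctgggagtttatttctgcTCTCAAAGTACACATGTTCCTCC
Igkv6-15: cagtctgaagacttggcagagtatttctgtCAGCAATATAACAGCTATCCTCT
Igkv10-96: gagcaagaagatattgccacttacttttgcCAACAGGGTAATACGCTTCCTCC
Igkv9-120: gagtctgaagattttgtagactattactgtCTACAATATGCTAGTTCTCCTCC
Over the coding part of the second exon, Igkv1-117 and Igkv1-110 were 96.8% identical. In all, 46 of the 100 coding segments had another Igkv gene at 95% identity or more. The sources used here do not give how reads that match several segments were counted, and values of such close relatives are uncertain where reads could be split between them.

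Igkv12-89, the segment with the largest difference between the groups, has no such close relative among the 100 coding segments. Pseudogene rows were not compared. The coding segment nearest to Igkv12-89, Igkv12-46, was 85.9% identical. The coding parts of the second exons of both, 298 bases each, are printed to show how far apart they are. Igkv12-89 lies at chr6:68834846-68835143 and Igkv12-46 at chr6:69764523-69764820, both on the minus strand of GRCm38, and capitals mark the 42 positions at which the segments differ.
Igkv12-89: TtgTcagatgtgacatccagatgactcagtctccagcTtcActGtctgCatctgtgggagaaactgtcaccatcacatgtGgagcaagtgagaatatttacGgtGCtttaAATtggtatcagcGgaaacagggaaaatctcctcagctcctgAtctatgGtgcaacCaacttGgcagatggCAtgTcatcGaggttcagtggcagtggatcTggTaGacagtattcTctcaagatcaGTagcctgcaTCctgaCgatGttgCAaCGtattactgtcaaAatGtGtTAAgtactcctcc
Igkv12-46: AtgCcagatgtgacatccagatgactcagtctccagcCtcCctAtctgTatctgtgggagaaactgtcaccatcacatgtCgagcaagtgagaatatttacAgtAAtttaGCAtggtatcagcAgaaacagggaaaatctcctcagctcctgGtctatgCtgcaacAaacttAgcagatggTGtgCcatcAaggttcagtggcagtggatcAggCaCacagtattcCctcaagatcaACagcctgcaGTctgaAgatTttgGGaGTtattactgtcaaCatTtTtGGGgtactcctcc

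The libraries held Igkv RNA from most of the locus. Values above 0 were found for 120, 117 and 116 rows in WT and for 124, 121 and 119 rows in Bach2-cKO. Of all 160 rows, 135 were above 0 in at least 1 library, 103 were above 0 in all 6, and 25 were at 0 throughout, 24 of them pseudogenes and the other the gene Igkv1-131. The mean number detected was 117.7 ± 2.08 in WT and 121.3 ± 2.52 in Bach2-cKO (SD, n = 3 each), and the groups overlapped (two-sided exact permutation test, p = 0.2; the smallest possible with 3 against 3 is 0.1). Brought to the same number of Igkv reads, 10900 per library, the expected numbers were 115.8, 115.4 and 116.0 in WT and 115.3, 114.7 and 115.7 in Bach2-cKO, which turned the direction of the difference. A floor of 3 reads in a row of 350 bases corresponds to 0.195 to 0.310 FPKM, so a segment at 0 may still have been present below that level.

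The amount of Igkv RNA was higher in the Bach2-cKO libraries. The Igkv FPKM sum was 1020, 1172 and 1083 in WT and 2101, 2688 and 1793 in Bach2-cKO. Every Bach2-cKO library lay above every WT library, and the mean was 2.01 times as high (1092 ± 76.3 against 2194 ± 454.6, SD, n = 3 each). The difference of the mean log2 sums was 0.99, at the smallest p that this design allows (exact permutation test, two-sided, p = 0.1; 0.14 after Benjamini-Hochberg adjustment over the 7 whole-locus measures). Igkv rows took 0.155% to 0.172% of all FPKM in WT and 0.268% to 0.398% in Bach2-cKO. In bulk RNA, more cells of a type and more RNA per cell cannot be told apart.

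**Figure D1:**
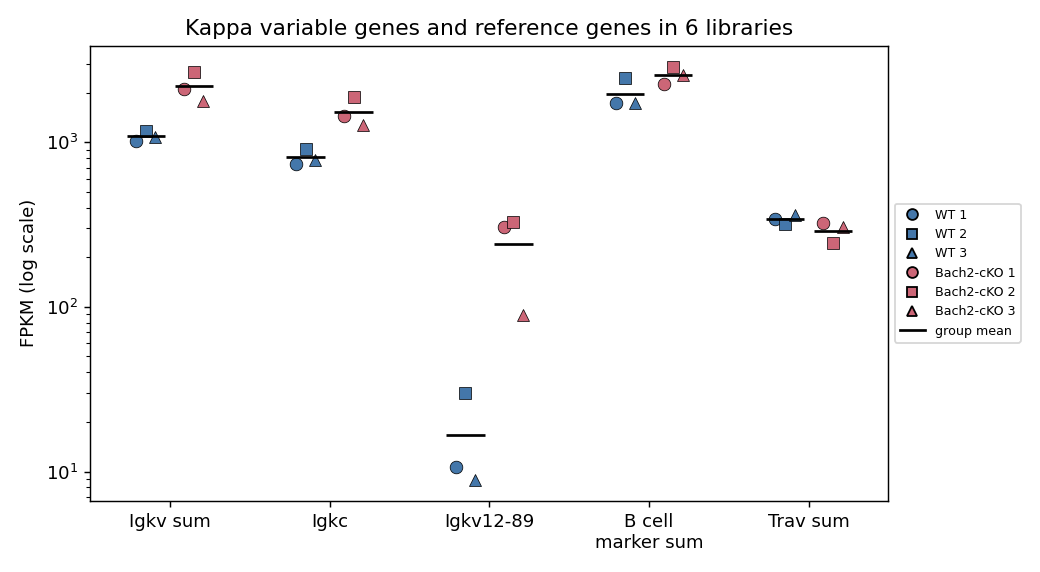
FPKM on a log scale for the Igkv sum, Igkc, Igkv12-89, the sum of the B cell markers without Cd74 and the sum of the T cell receptor Trav rows, with 1 point per library and a line at the group mean (n = 3 per group). All 3 Bach2-cKO Igkv sums, 1793 to 2688 FPKM, lie above all 3 WT sums, 1020 to 1172.

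Most segments had higher values in the Bach2-cKO libraries. Of the 160 rows, 96 passed the filter for testing (at least 1 FPKM in at least 3 libraries): 89 genes and 7 pseudogenes. In limma on log2(FPKM + 1), adjusted by Benjamini-Hochberg over all 13766 genes tested, 32 of the 96 were higher in Bach2-cKO and 0 were lower. Over all genes tested, 7.02% were higher and 8.31% lower. No Igkv row was lower at an unadjusted p under 0.05, and limma-voom on the recovered reads found 35 higher and 0 lower. The log2 difference was above 0 for 92 of the 96 rows, with a median of 0.70 and a range from -0.72 to 3.76, where the median over all genes tested was -0.017. All 3 Bach2-cKO values lay above all 3 WT values for 45 of the 96 rows, 46.9%, against 15.5% of all genes tested. The filter itself admitted 2 rows, Igkv2-107 and Igkv4-81, that reached 1 FPKM in the Bach2-cKO libraries only. Without them, 31 of 94 were higher and 43 of 94 did not overlap. These 94 still hold rows under 1 FPKM in most WT libraries, among them Igkv1-133, Igkv4-90 and Igkv9-123. Their Bach2-cKO values alone met the filter, so the counts over the 94 rows are not free of it. Without WT replicate 1 the count of higher rows fell to 19, and it was also 19 without Bach2-cKO replicate 2.

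The sizes were similar across most called segments: 23 of the 32 were between 1.5 and 2.5 times as high in mean FPKM. The smallest p belonged to Igkv15-103, at 9.54, 11.1 and 7.99 FPKM in WT and 22.6, 23.4 and 25.8 in Bach2-cKO, a log2 difference of 1.25 (limma, adjusted p = 0.000966). Igkv14-111, Igkv9-120, Igkv14-126 and Igkv6-15 followed the same pattern without overlap. Igkv14-126 stood at 6.37, 6.06 and 5.35 FPKM in WT and 14.6, 11.0 and 12.5 in Bach2-cKO (log2 difference 0.98, adjusted p = 0.00264). Igkv6-32, Igkv4-80, Igkv6-13, Igkv4-57 and Igkv5-43 also rose, with log2 differences of 1.18, 1.31, 1.04, 0.95 and 1.05. Igkv5-43 is 99.0% identical to Igkv5-45 in the coding part of the second exon, and its value is uncertain for that reason. The 4 rows with a difference below 0, named after their values were seen, were Igkv12-38 (-0.72, adjusted p = 0.372) and the pseudogenes Igkv13-78-1, Igkv4-60 and Igkv12-47 (-0.43, -0.28 and -0.02), and none of them passed the test.

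**Figure D2:**
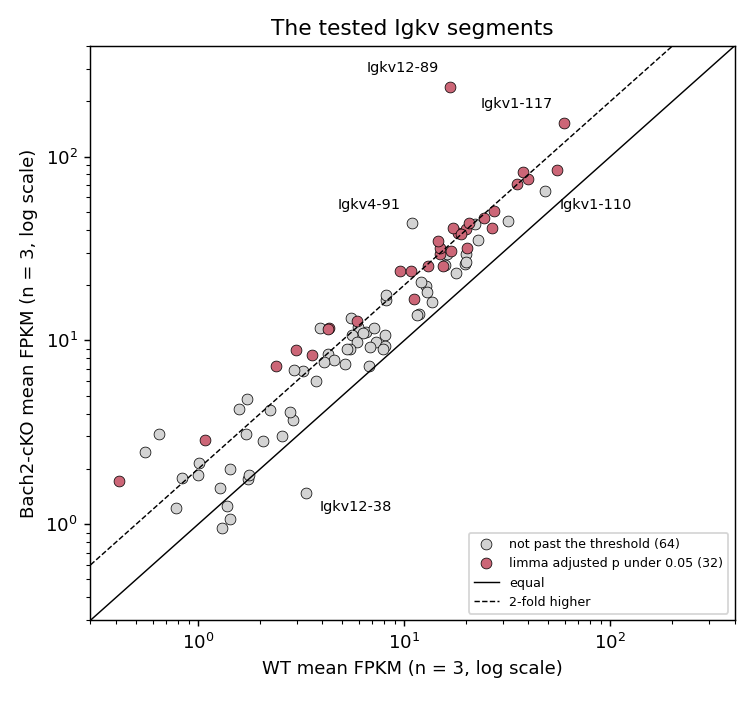
Mean FPKM of each of the 96 tested Igkv rows in WT (horizontal, log scale) against Bach2-cKO (vertical, log scale), n = 3 libraries per group, with rows past the limma threshold in red; the solid line marks equal values and the dashed line 2 times as much. Most points lie above the line of equal values, and Igkv12-89 lies farthest from it, at 16.6 against 240.2 FPKM.

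Igkv12-89, at chr6:68834846-68835307, stood apart from the other segments in size. It was at 10.7, 30.2 and 8.89 FPKM in WT and at 304.5, 327.0 and 89.0 FPKM in Bach2-cKO. The lowest Bach2-cKO library was above the highest WT library, and within each group the values differed by a factor of more than 3. Mean levels were 16.6 ± 11.8 FPKM in WT and 240.2 ± 131.4 FPKM in Bach2-cKO (SD, n = 3 each), 14.5-fold apart, and the log2 difference was 3.76 with a standard error of 0.58 (limma, adjusted p = 0.00577). The difference stayed past the threshold when any single library was left out, between 3.43 and 4.37. In reads, Igkv12-89 held 158 of 16386, 314 of 13202 and 83 of 10900 Igkv reads in WT, and 2843 of 21010, 3524 of 31122 and 833 of 18197 in Bach2-cKO. As a share of Igkv reads these were 0.964% (95% Wilson interval 0.826 to 1.13), 2.38% (2.13 to 2.65) and 0.762% (0.615 to 0.943) in WT. In Bach2-cKO they were 13.5% (13.1 to 14.0), 11.3% (11.0 to 11.7) and 4.58% (4.28 to 4.89). These intervals cover counting error only, and PCR copies of a molecule are not separated.

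By rank, Igkv12-89 was the leading segment in Bach2-cKO replicates 1 and 2 and the third in replicate 3. In WT it ranked 36th, 9th and 42nd. The WT library with the highest value, replicate 2, thus already had it among its 10 leading segments.

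The other leading segments were higher in Bach2-cKO by smaller factors or overlapped. Igkv1-117, which led in WT replicates 2 and 3 and in Bach2-cKO replicate 3, was at 50.0, 75.2 and 53.4 FPKM in WT and 126.2, 208.6 and 124.5 in Bach2-cKO (log2 difference 1.33, adjusted p = 0.00842). Its share of the Igkv sum overlapped between groups, 4.90% to 6.41% in WT and 6.00% to 7.76% in Bach2-cKO. Igkv6-15 was at 37.0, 41.0 and 34.9 FPKM in WT and 87.5, 95.3 and 64.2 in Bach2-cKO (1.09, adjusted p = 0.0031). Igkv9-120 was at 34.5, 29.4 and 41.2 FPKM against 73.5, 75.7 and 62.9 (1.00, adjusted p = 0.00275), and Igkv10-96 at 30.7, 38.3 and 50.2 against 81.5, 77.9 and 67.3 (0.93, adjusted p = 0.0101). All 3 of these segments had groups that did not overlap.

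Igkv1-110, the leading segment of WT replicate 1, did not pass the test. It was at 80.6, 34.3 and 29.2 FPKM in WT and 54.3, 56.6 and 84.3 in Bach2-cKO (0.55, adjusted p = 0.346). The high value came from WT replicate 1, and without that library the log2 difference was 0.99 with an adjusted p of 0.0343. Igkv1-135, at 48.5, 68.1 and 48.7 against 67.5, 92.4 and 93.7 FPKM, was near the threshold (0.61, adjusted p = 0.0482) with overlapping values, and it missed the threshold without WT replicate 1 or 3 or without Bach2-cKO replicate 2 or 3 (adjusted p from 0.0954 to 0.154). Igkv19-93 passed with all libraries (0.86, adjusted p = 0.0422) but not without WT replicate 1 or 3 or without Bach2-cKO replicate 2 or 3 (adjusted p from 0.0655 to 0.135). Igkv17-121 also passed with all libraries (0.61, adjusted p = 0.0227) but not without WT replicate 2 or 3 or without Bach2-cKO replicate 1 or 2 (adjusted p from 0.0577 to 0.0735). Igkv17-127 had a difference of 0.48 (adjusted p = 0.172). Igkv17-121 and Igkv17-127 are 98.0% identical, so reads could be split between them.

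**Figure D3:**
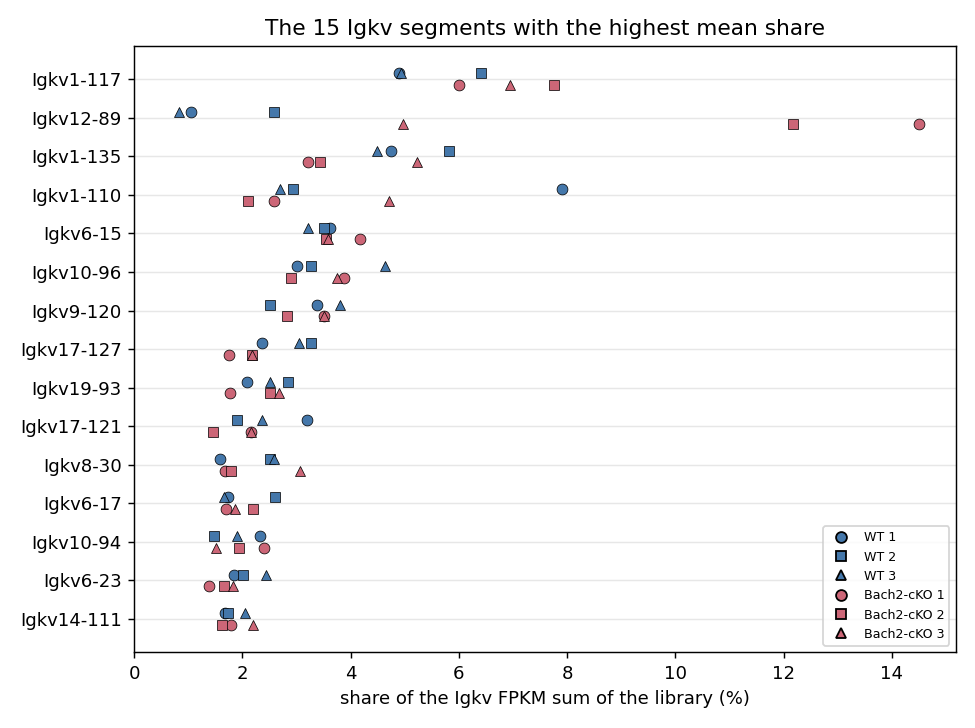
Share of the Igkv FPKM sum, in percent, held by the 15 segments with the highest mean share, with 1 point per library. Igkv12-89 holds 14.5%, 12.2% and 4.96% in the Bach2-cKO libraries and 0.821% to 2.57% in the WT libraries.

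No library was dominated by a few segments in the sense of most of the RNA. The leading segment held 7.91%, 6.41% and 4.93% of the Igkv sum in WT and 14.5%, 12.2% and 6.94% in Bach2-cKO, which overlap (exact permutation test, two-sided, p = 0.2). The 10 highest segments together held 38.6%, 35.7% and 34.7% in WT and 44.2%, 43.1% and 40.7% in Bach2-cKO. It took 16, 18 and 17 segments to reach 50% of the sum in WT, and 14, 14 and 15 in Bach2-cKO. To reach 90% it took 54, 57 and 55 segments in WT and 52, 53 and 53 in Bach2-cKO. Only 4 of the 96 tested segments held 5% or more in any library, and 28 rows held at least 1% in every library.

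The RNA was spread over fewer segments in the Bach2-cKO libraries, at the smallest p this design allows. The effective number of segments, the number of equally used segments with the same Shannon entropy, was 58.4, 62.9 and 61.9 in WT and 50.0, 51.8 and 56.6 in Bach2-cKO. The groups did not overlap, and the means differed by -8.25 (61.1 ± 2.40 against 52.8 ± 3.40, SD, n = 3 each; exact permutation test, two-sided, p = 0.1, adjusted 0.14). Pielou evenness, the entropy divided by its maximum for the segments detected, was 0.849, 0.870 and 0.868 in WT and 0.812, 0.823 and 0.844 in Bach2-cKO, with the same p. The share of the 10 highest segments was 36.3% ± 2.04 in WT and 42.7% ± 1.76 in Bach2-cKO, also with an exact permutation p of 0.1, the smallest possible.

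These differences rested on Igkv12-89. With that segment left out, an alternative chosen after its values were seen, the effective numbers were 57.4, 62.1 and 61.0 in WT and 59.8, 58.8 and 56.8 in Bach2-cKO, and the groups overlapped (difference -1.75, exact permutation test, p = 0.4). The difference in the share of the 10 highest segments fell to 1.29 percentage points (exact permutation test, p = 0.4). The higher amount of Igkv RNA did not rest on it: the sum without Igkv12-89 was 1075 ± 66.2 in WT and 1954 ± 355.5 FPKM in Bach2-cKO, a ratio of 1.82.

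**Figure D4:**
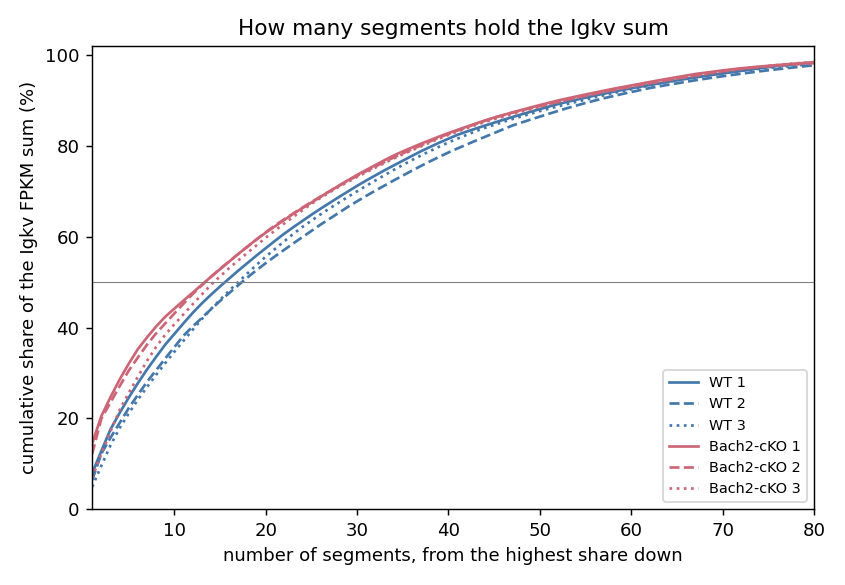
Cumulative share of the Igkv FPKM sum, in percent, against the number of segments counted from the highest down, with 1 line per library. The Bach2-cKO lines rise earlier, reaching 50% at 14 or 15 segments against 16 to 18 in WT.

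The mix of segments differed between any 2 libraries by a modest part of the sum. The part of the Igkv sum that would have to move to other segments to turn the shares of a library into those of another was 15.8% to 17.8% between WT libraries and 13.1% to 18.1% between Bach2-cKO libraries. Between the groups it was 13.3% to 23.1%, with a median of 19.7%, so the ranges overlapped. Among the 96 tested segments, 10 had shares that were lower in all Bach2-cKO libraries than in all WT libraries. For 3 of the 96, shares were higher in all Bach2-cKO libraries. Of the 94 rows that reached 1 FPKM in at least 1 WT library, 2 had shares that were higher in all, Igkv12-89 and Igkv6-32. Shares within Igkv have no counterpart over all genes, so no background stands beside these counts, and they were not tested. A large share in 1 segment lowers the shares of the others, because shares sum to 100%.

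A pair of segments had a high share in a single library. Igkv4-91 held 3.59% of the sum in Bach2-cKO replicate 2 and at most 1.12% in any other library. It stood at 11.5, 10.5 and 10.6 FPKM in WT and at 18.1, 96.6 and 15.7 in Bach2-cKO, and it did not pass the test with all libraries (1.41, adjusted p = 0.158). Without Bach2-cKO replicate 2 its difference was 0.59 with an adjusted p of 0.0225. Igkv14-100 held 2.28% in WT replicate 1 and at most 0.740% elsewhere, from 23.2, 7.36 and 4.62 FPKM in WT and 11.0, 19.9 and 10.8 in Bach2-cKO.

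Igkv genes are grouped into numbered subgroups by sequence, and the number after Igkv names the subgroup. Subgroup 12, which holds Igkv12-89, took 6.67% of the Igkv sum on average in WT and 14.8% in Bach2-cKO. Of its other genes, Igkv12-46 had mean shares of 1.83% and 1.36%, Igkv12-41 of 0.704% and 0.409%, and Igkv12-44 of 1.58% and 1.82%. Igkv12-98 was at 0.578% and 0.503%, and Igkv12-38 at 0.301% and 0.0632%. In mean FPKM, Igkv12-46 (19.9 and 29.5), Igkv12-41 (7.87 and 9.02), Igkv12-44 (17.2 and 40.65) and Igkv12-98 (6.33 and 10.9) were higher in Bach2-cKO. Igkv12-38 was lower (3.32 and 1.49). Subgroup 1, with Igkv1-117, Igkv1-110 and Igkv1-135, held 16.3% and 15.6%, and subgroup 4, the subgroup with the most rows at 33, held 15.6% and 14.7%. Subgroups 6 and 8 held 12.6% and 10.4% in WT and 11.5% and 9.16% in Bach2-cKO. Subgroup 13 has 18 rows, 16 of them pseudogenes, and 11 of them were at 0 in all libraries.

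Called segments lay along the whole locus. When the 160 rows were cut by position into 4 blocks of 40, from the end far from the J segments to the end next to them, 50.0%, 25.0%, 28.6% and 31.0% of the tested rows were higher, and the median log2 differences were 0.83, 0.72, 0.57 and 0.71. The second block, with Igkv12-89, went from 18.4% to 26.5% of the Igkv sum, and the other 3 blocks had lower mean shares in Bach2-cKO. The distal end of the locus, Igkv2-137, was low, at 0.062 to 0.431 FPKM. The proximal end, Igkv3-1, was at 2.16, 1.08 and 1.91 FPKM in WT and 4.93, 7.23 and 2.31 in Bach2-cKO.

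Called segments occurred in both orientations. Of the 36 tested rows on the plus strand 36.1% were higher, with a median log2 difference of 0.77, and of the 60 on the minus strand 31.7% were higher, with a median of 0.63. Pseudogenes held 1.23% of the Igkv sum in WT and 0.923% in Bach2-cKO, and 7 of the 60 were tested. Igkv2-107, the pseudogene past the threshold, was tested only because of its Bach2-cKO values, 1.499, 2.498 and 1.150 FPKM against 0.146, 0.517 and 0.577 in WT, so its call is in part fixed by the filter. The pseudogene with the highest level was Igkv4-77, at 2.20, 4.32 and 1.85 FPKM in WT and 3.49, 4.09 and 4.70 in Bach2-cKO.

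**Figure D5:**
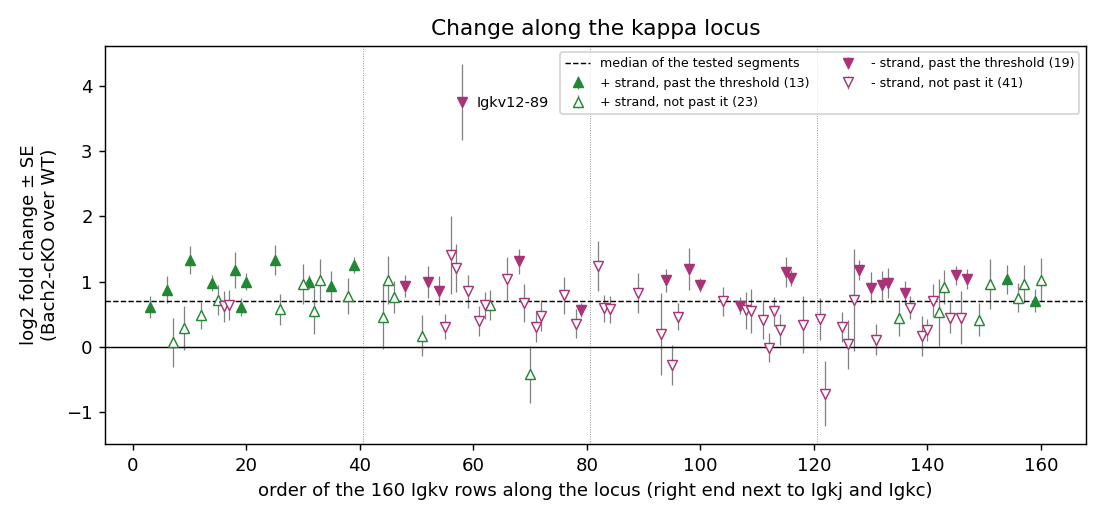
Log2 difference, Bach2-cKO minus WT on log2(FPKM + 1), of the 96 tested Igkv rows against their order along the locus, with bars of 1 standard error; triangles give the strand, filled ones are past the limma threshold, and dotted lines part the 4 blocks of 40 rows. Filled points occur in all 4 blocks, and Igkv12-89 is the highest at 3.76.

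The constant part of the same message moved with the variable part. Igkc was at 1444, 1879 and 1273 FPKM in Bach2-cKO, with a WT mean of 809.8 ± 90.6 (SD, n = 3; log2 difference 0.91, adjusted p = 0.00785). The ratio of the Igkv sum to Igkc was 1.38, 1.28 and 1.39 in WT and 1.46, 1.43 and 1.41 in Bach2-cKO, a log2 difference of 0.083 (exact permutation test, p = 0.1), and without Igkv12-89 the direction turned, to -0.058. Of the joining segments, Igkj1, Igkj2, Igkj3 and Igkj5 rose and Igkj4 had an adjusted p of 0.0905. Among the lambda light chain genes Iglc3 and Iglv3 rose (adjusted p = 0.0420 and 0.0415), and Iglc1, Iglc2, Iglv1 and Iglv2 did not pass the test, with ratios of mean FPKM from 1.40 to 1.62.

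The heavy chain genes and the regulators of the kappa locus differed among themselves. Ighm and Ighd, the constant regions of the IgM and IgD that naive B cells carry, rose by log2 differences of 0.76 and 0.59 (adjusted p = 0.00864 and 0.0489), and Ighg3, an IgG constant region, by 1.61 (adjusted p = 0.00816). Ighg1, Ighg2b, Ighg2c, Igha and Ighe did not pass the test. Jchain, which links antibody polymers, rose by 1.39 (adjusted p = 0.00391), and Pou2af1, the coactivator of octamer-driven immunoglobulin transcription, by 0.83 (adjusted p = 0.0107). Pax5, a B cell identity factor, rose by 0.64 (adjusted p = 0.00623). Pou2f2, Spib, Ebf1, Rag1 and Rag2, the last pair encoding the recombinase, did not pass the test. In all, 13 of the 31 tested partner genes were higher by limma and 0 lower, with 0 lower at an unadjusted p under 0.05 and 0 lower by limma-voom. Among all genes tested, 7.02% were higher and 8.31% lower by limma.

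Some markers of B cells and plasma cells were also higher, in samples sorted without B220. The 17 B cell markers summed to 2413 to 3192 FPKM in WT and 3752 to 4725 in Bach2-cKO, none was at 0, and 6 were higher and 0 lower by limma (lower at an unadjusted p under 0.05: 0; by limma-voom: 0), with a median log2 difference of 0.39. Among those that did not pass the test, Spib, Fcer2a and Cr2 had log2 differences of 0.10, 0.14 and 0.05, and Cd72 had one of -0.11. Without Cd74, which other antigen-presenting cells also express, the sum was 1724 to 2445 FPKM in WT and 2253 to 2884 in Bach2-cKO, which overlap (ratio of means 1.31, exact permutation test, p = 0.2). The Igkv sum relative to this B cell sum without Cd74 was 0.588, 0.479 and 0.628 in WT and 0.933, 0.932 and 0.695 in Bach2-cKO, without overlap (exact permutation test, p = 0.1). Of 10 plasma cell markers 9 were tested, 6 were higher and 0 lower by limma (lower at an unadjusted p under 0.05: 0; by limma-voom: 0), and their sum was 271 to 313 FPKM in WT and 477 to 630 in Bach2-cKO. Prdm1 and Xbp1, transcription factors of plasma cells that activated T cells can also express, and Mzb1 were among the 6, while Sdc1, the plasma cell surface proteoglycan CD138, was at a mean of 8.66 FPKM in WT and 8.41 in Bach2-cKO and did not pass the test. Tnfrsf17, a receptor of plasma cells, was near 0 in every library, with means of 0.155 and 0.0807 FPKM. For both lists, the share of all genes tested that was higher by limma was 7.02%.

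Markers of other cells also differed. Of the 10 T cell markers, 5 were lower, Trbc1, Trbc2, Lck, Cd3d and Cd3g. Of the 5 Treg markers, Il2ra was the 1 that passed the test, and it was higher. All 4 tested markers of CD8 T and NK cells were higher, with sums of 94.2 to 119 FPKM in WT and 156 to 309 in Bach2-cKO. Limma called 7.02% of all genes tested higher and 8.31% lower. Of the 4 tested myeloid markers 0 passed limma's test (unadjusted p under 0.05: 1 higher and 0 lower; by limma-voom: 0 and 0), and their list summed to 14.9 to 16.4 FPKM in WT and 13.1 to 67.6 in Bach2-cKO. The part that the cell makeup of the samples had in the Igkv difference was not tested.

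Igkv was compared with other V families in the same libraries. The Ighv rows (185, heavy chain V) summed to 866, 1018 and 893 FPKM in WT and 1763, 2106 and 1643 in Bach2-cKO, and the ratio of Igkv to Ighv overlapped, 1.15 to 1.21 against 1.09 to 1.28. The Trav rows (128, T cell receptor alpha V) summed to 342, 320 and 360 FPKM in WT and 324, 244 and 306 in Bach2-cKO. The Igkv sum was 2.98, 3.66 and 3.01 times the Trav sum in WT and 6.48, 11.0 and 5.87 times in Bach2-cKO.

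Igkv was less evenly used than Trav by Pielou evenness in 6 of 6 libraries, by a mean of -0.0484 (exact sign-flip permutation test, two-sided, p = 0.03125, the smallest possible; 0.0625 after adjustment over 2 comparisons). It did not pass the adjusted threshold, and the direction turned when the log2 ratio of the effective numbers was used (0.047, p = 0.406 by the same exact test). With pseudogene rows left out, the mean difference in Pielou evenness from Trav was -0.0269. Trav had 84 to 97 rows above 0. The evenness of Igkv and Ighv differed by -0.0135, negative in 4 of 6 libraries (exact sign-flip permutation test, p = 0.25).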

How the data were processed

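Poly(A) RNA of 6 libraries was measured, 3 WT and 3 Bach2-cKO. The tools named are HISAT2 2.0.5 and featureCounts 1.5.0-p3, with mm9, per the submitters' processing notes, but all 160 Igkv positions in the deposited tables equal GENCODE M21 on GRCm38, so positions are given as GRCm38. The sources used here do not say whether counting used strand. The authors deposited FPKM per gene and library, with no counts. Whole reads were recovered from the steps of these values (99.77% to 99.80% of each total, tolerance 0.001 reads). Of the Igkv rows above 0, 100 gave whole reads at their annotated length. For the other 35, Igkv12-89 among them, the smallest length that gave whole reads in every library was used. Their read counts rest on that length.

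The test was limma 3.58.1 (intensity trend, R 4.3.3) on log2(FPKM + 1), where 1 is the pseudocount, for rows that reached 1 FPKM in 3 or more libraries, two-sided, with Benjamini-Hochberg adjustment over all 13766 genes and a threshold of 0.05. This scale understates changes of low genes. The script was tested on simulated data. Whole-locus measures were compared by exact permutation tests. Alternatives were other filters, pseudocounts, scalings, recovered reads, pseudogenes left out and each library left out.

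The text names the 10 segments with the highest mean share, each leading segment, up to 10 called rows per direction by p, segments with at least 1% in 1 library and 3 times the next, both locus ends, the highest pseudogene, partner genes and up to 4 markers a list. Members and lists were chosen with earlier results of these data known. Sequences come from GENCODE M21.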

Additional observations from a re-analysis of the deposited data

How the results depend on the processing

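The count of 32 higher Igkv rows was 14 with no filter on low values, where many more low genes were tested, and 19 to 39 when each library was left out, with 19 both when WT replicate 1 and when Bach2-cKO replicate 2 was left out. The count was 28 with a filter of 0.1 FPKM, 31 with a pseudocount of 0.1, 33 with median-ratio scaling and 35 with limma-voom. Same-numbered libraries did not deviate together (r = -0.05, 0.01 and -0.21), and differently numbered ones had r from -0.13 to 0.18. With 3 libraries per group this cannot exclude that the numbers pair them. With a replicate block the count was 39. The directions that turned were the number detected at equal Igkv reads (-0.494), the Igkv to Igkc ratio without Igkv12-89 (-0.058) and Igkv against Trav by effective numbers (0.047). The evenness difference from Trav lay between -0.0533 and -0.0418 with a library left out, where 5 libraries cannot reach the threshold. The effective number difference lay between -10.1 and -6.84. Low segments are limited by read number. With no filter, Igkv1-135, Igkv19-93, Igkv17-121 and Igkv10-96 missed the threshold (adjusted p = 0.149, 0.138, 0.0822 and 0.0507 by limma), and with a filter of 0.1 FPKM so did Igkv1-135 and Igkv19-93 (0.0635 and 0.0565).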

Other observations

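A heavy chain segment, Ighv1-55, had a similar pattern to Igkv12-89 and was chosen after its values were seen. It stood at 11.6, 29.2 and 18.0 FPKM in WT and at 132.8, 193.1 and 62.2 in Bach2-cKO, without overlap (log2 difference 2.61; limma, adjusted p = 0.00823). Its share of the Ighv sum was 1.34%, 2.87% and 2.02% in WT and 7.53%, 9.17% and 3.79% in Bach2-cKO. Among the WT libraries Ighv1-55 was highest in replicate 2, and among the Bach2-cKO libraries it was lowest in replicate 3. The same held for Igkv12-89, and also for the Igkv sum, the Ighv sum and Igkc. The sums and Igkc stood at 1172, 1018 and 911.6 FPKM in WT replicate 2 and at 1793, 1643 and 1273 in Bach2-cKO replicate 3. Ighv1-81 led the Ighv rows in all 6 libraries. Among the lambda V segments, Iglv1 held 61.3%, 61.7% and 61.2% of the Iglv sum in WT and 59.6%, 59.0% and 61.3% in Bach2-cKO.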
